A study of Mus musculus with 20 samples.

Results

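The 9 genes described here encode the amyloid precursor, tau, subunits of the secretases and proteases that degrade amyloid-beta: App, Mapt, Bace1, Adam10, Psen2, Ncstn, Aph1a, Ide and Mme. They were chosen by name as members of this pathway, and all 9 were rows among the 33119 genes of the count table and passed the filter on low counts. Their mRNA was measured by polyA RNA sequencing in the hippocampus of 20 mice aged 16 months. The mice were homozygous for a targeted replacement of mouse Apoe by human APOE3 (hAPOE3) or human APOE4 (hAPOE4), on a C57BL/6 background. All 20 therefore carried a human APOE, and there was no group with the mouse gene. There were 4 groups of 5 mice. Mice S144 to S148 were females and S154 to S158 males with hAPOE3, and mice S164 to S168 were females and S174 to S178 males with hAPOE4. No transgene for APP or tau is given for them, so App and Mapt are the mouse genes. The comparisons ask whether APOE genotype and sex, both linked to the risk of late onset Alzheimer's disease, went with different mRNA levels of this pathway.

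The amyloid precursor protein is a membrane protein that is cut in alternative ways. Alpha-secretases, of which ADAM10 is the main one in neurons, cut it inside the amyloid-beta stretch, whereas beta-secretase (BACE1) cuts at the start of that stretch and gamma-secretase then releases the amyloid-beta peptide from the membrane. Gamma-secretase is a complex of a presenilin (such as Psen2), nicastrin (Ncstn), APH1 (Aph1a and its relatives) and PEN2 (Psenen). Neprilysin (Mme) and the insulin-degrading enzyme (Ide) break the peptide down, and tau (Mapt) is the microtubule-binding protein of axons that accumulates in tangles. Mouse amyloid-beta differs from the human peptide at a few residues and does not form plaques in mice without a human transgene. mRNA levels give neither enzyme activity nor peptide.

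Sites through which some of these proteins act are encoded in the spliced stretches below, read from the GENCODE annotation on the mouse genome GRCm38. They are shown for the substrate App and for the members with catalytic residues. Mapt, Ncstn and Aph1a have no stretch shown. In App, on the minus strand of chromosome 16, capitals mark the 42 codons of amyloid-beta (codons 597 to 638), and the printed stretch lies in exons 14 and 15 at chr16:84962782-84965732. In Bace1, on the plus strand of chromosome 9, capitals mark the codons of the motifs around the catalytic aspartates. Its printed stretches, flanking codons included, lie at chr9:45839286-45852932 across exons 1 and 2 and at chr9:45858406-45858453 in exon 6. In Psen2, on the minus strand, capitals mark the motif that holds a catalytic aspartate of presenilins, in a printed stretch at chr1:180228918-180229389 across exons 9 and 10.
App amyloid-beta: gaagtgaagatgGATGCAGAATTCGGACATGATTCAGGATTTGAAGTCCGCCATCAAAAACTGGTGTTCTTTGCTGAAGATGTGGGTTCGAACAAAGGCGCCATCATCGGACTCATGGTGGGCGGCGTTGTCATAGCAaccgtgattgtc
Bace1 first site: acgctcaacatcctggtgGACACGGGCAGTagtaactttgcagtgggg
Bace1 second site: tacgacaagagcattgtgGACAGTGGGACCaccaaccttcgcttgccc
Psen2 motif: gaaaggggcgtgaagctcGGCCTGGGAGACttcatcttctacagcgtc

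The metal-dependent proteases carry zinc-binding motifs, marked by capitals, and the coordinates are those of the printed stretches with their flanking codons. In Adam10 (plus strand, chr9:70754278-70761585, exons 9 and 10) and Mme (plus strand, chr3:63362003-63364763, exons 18 and 19) the glutamate directly follows the first histidine. In Ide (minus strand, chr19:37329118-37329168, exon 2), the inverted form, it directly precedes the last histidine.
Adam10: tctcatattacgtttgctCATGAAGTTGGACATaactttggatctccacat
Mme: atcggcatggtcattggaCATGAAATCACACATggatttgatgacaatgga
Ide: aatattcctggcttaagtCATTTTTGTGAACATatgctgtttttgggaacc

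The genes themselves lie at chr16:84949685-85173766 (App), chr11:104231390-104332090 (Mapt), chr9:45838580-45864399 (Bace1), chr9:70678997-70780229 (Adam10), chr1:180227004-180263438 (Psen2), chr1:172066013-172082795 (Ncstn), chr3:95893969-95898288 (Aph1a), chr19:37268743-37337852 (Ide) and chr3:63241537-63386030 (Mme). Other annotated genes overlap 7 of these 9, Mme and Adam10 excepted. They include the protein-coding genes Rnf214 at Bace1, Copa at Ncstn and Car14 at Aph1a, each on the opposite strand. These overlaps are of whole gene spans, introns included, whereas reads were assigned to spliced transcripts. Whether that assignment used strand is not given in the sources used here, and sequence shared between the transcripts was not tested.

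Each mouse had between 35778879 and 52520279 counts. Markers of neurons, glia, vessels and hippocampus were all detected, and no marker was at 0 in all mice. Choroid plexus markers summed to between 80.0 and 6578 CPM (counts per 1000000 after TMM scaling), and markers of thalamus to between 226 and 892 CPM. A score of thalamus markers, the mean log2 deviation from all mice, was 1.79 to 1.93 in S158, S176 and S178 and below 0 in all other mice. In tissue, fewer cells of a type and less RNA per cell cannot be told apart. Libraries also differed by transcript length: the correlation across 10741 genes between a mouse's log2 deviation and transcript length, called the length coefficient here, was between -0.60 and -0.30 in 6 mice and between -0.02 and 0.57 in the other 14. Those 6 were 3 hAPOE3 males (S156, S157, S158), 2 hAPOE3 females (S147, S148) and 1 hAPOE4 male (S178), with 0 hAPOE4 females. Of these 6 mice, 5 (all but S178) also had scores of nuclear oxidative phosphorylation genes above 0.25.

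Per kilobase of the principal transcript, App was the most abundant of the 9 at 429 ± 26.7 CPM per kb (SD, 20 mice), followed by Mapt at 379 ± 21.4. App was above Mapt in 19 of 20 mice. With the longest coding transcript, which holds more of the untranslated ends, the levels were 166.9 ± 10.4 and 98.4 ± 5.54 CPM per kb and App was above Mapt in 20 of 20. The secretases were far lower: Ncstn at 20.3 ± 1.58, Bace1 at 20.3 ± 1.82, Adam10 at 19.9 ± 3.02 and Aph1a at 16.6 ± 2.09 CPM per kb. Ncstn and Bace1 did not separate beyond their spread (Ncstn was above in 8 of 20 mice), nor did Bace1 and Adam10 (11 of 20), and Adam10 was above Aph1a in 15 of 20. Aph1a was above Ide, at 10.4 ± 1.07 CPM per kb, in 20 of 20 mice. Below it came Psen2 at 6.68 ± 0.840 and last Mme at 0.944 ± 0.274. Neprilysin mRNA was thus the scarcest and, with a coefficient of variation of 29.0%, the most variable. Mapt was the steadiest at 5.63%.

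**Figure D1:**
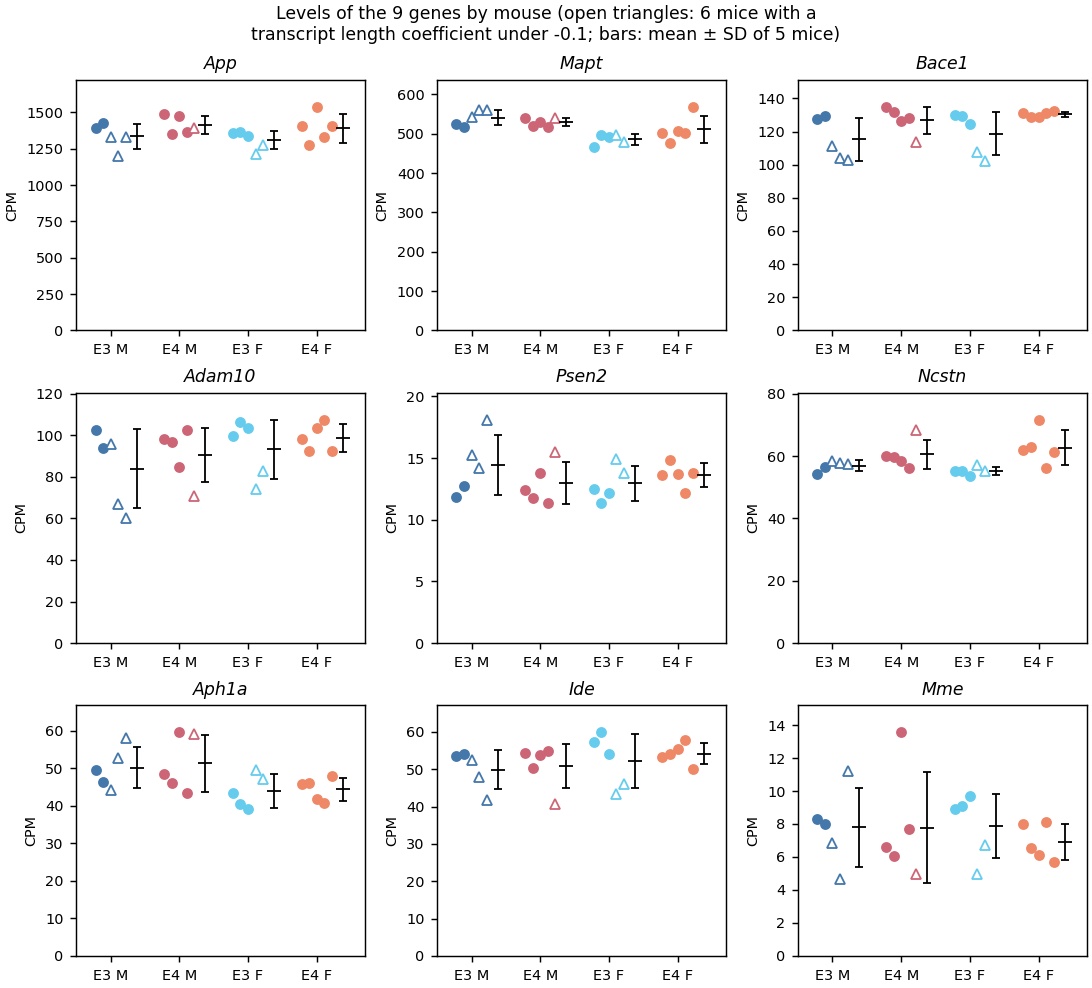
CPM of each of the 9 genes in each mouse, with a separate vertical axis from 0 for each gene. Groups are hAPOE3 (E3) and hAPOE4 (E4) males (M) and females (F), bars give the mean and SD of 5 mice, and open triangles mark the 6 mice with a low length coefficient. In Bace1 the triangles, at 103 to 114 CPM, lie below the circles, at 124 to 135.

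App, the source of amyloid-beta, ranged from 1198 to 1539 CPM over all mice. In hAPOE3 males it was 1391, 1424, 1333, 1198 and 1334 CPM, and in hAPOE4 males 1487, 1349, 1475, 1368 and 1389.6 CPM. In hAPOE3 females it was 1358, 1366, 1336, 1214 and 1278 CPM, and in hAPOE4 females 1408, 1273, 1539, 1333 and 1403 CPM. The groups overlapped in each comparison. The log2 fold change of hAPOE4 against hAPOE3 was 0.08 ± 0.08 (SE, 5 mice a group) in males and 0.09 ± 0.08 in females. Averaged over the sexes it was 0.08, with a 95% interval of -0.03 to 0.20 and an adjusted p of 0.451 (edgeR). Between females and males it was -0.03 in hAPOE3 and -0.02 in hAPOE4 mice. Without the 5 mice with high oxidative phosphorylation scores, the value in males went to -0.0027 and the averaged value to 0.02.

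Mapt was the only member whose groups did not overlap in any of the 4 comparisons of 5 with 5 mice. hAPOE3 females had 465, 498, 491, 496 and 479 CPM, all below the hAPOE3 males at 524, 518, 542, 560.0 and 561 CPM. Of all genes tested, 0.723% did not overlap in this comparison. The log2 fold change was -0.16 ± 0.07 (SE), and it did not pass the threshold over all genes (adjusted p = 0.805, edgeR). The exact permutation p, two-sided and unadjusted, was 0.00794, the smallest that 5 against 5 mice can give. In hAPOE4 mice the sexes overlapped, with 503, 476, 506, 502 and 569 CPM in females and 540.0, 520.4, 529, 517 and 539 CPM in males. S168, at 569 CPM, was the highest of all 20 mice. Averaged over the genotypes the difference was -0.10 ± 0.05 (adjusted p = 0.473), and the interaction of sex and APOE had an adjusted p of 1.00. Without the 5 mice with high oxidative phosphorylation scores the hAPOE3 value was -0.10 and the averaged value -0.06.

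Adam10, the alpha-secretase, differed more between mice within a group than between groups. hAPOE3 males had 103, 93.9, 95.7, 66.7 and 60.2 CPM, and hAPOE4 males 98.1, 96.7, 84.9, 103 and 70.7 CPM. hAPOE3 females had 99.4, 106, 104, 74.0 and 82.7 CPM, and hAPOE4 females 98.1, 92.2, 104, 108 and 92.3 CPM. The 5 lowest values, 60.2 to 82.7 CPM, all belonged to mice with a low length coefficient. The hAPOE4 females, with no such mouse, were the narrowest group.

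Bace1, the beta-secretase, split into separate levels. hAPOE3 males had 128, 129.5, 111, 104 and 103 CPM, hAPOE4 males 135, 132, 127, 128 and 114 CPM. hAPOE3 females had 129.9, 129.6, 124, 108 and 103 CPM, and hAPOE4 females 131, 129, 129, 131 and 132 CPM. The 6 mice with a low length coefficient had 103 to 114 CPM and the other 14 mice 124 to 135 CPM, without overlap. That coefficient was computed from the same libraries, so this split is a description and not a test. The share of all genes without overlap between these mice is not given here. hAPOE4 exceeded hAPOE3 by a log2 fold change of 0.14 ± 0.08 (SE) in males and 0.13 ± 0.08 in females. Averaged over the sexes this was 0.14 ± 0.06, with an unadjusted p of 0.0326 and an adjusted p of 0.230 (edgeR). Without the 5 mice with high oxidative phosphorylation scores the averaged value was -0.00039 and the value in males -0.03. With the authors' gene-specific factors as offsets it was 0.23 averaged over the sexes (adjusted p = 0.0798, edgeR), 0.22 in males and 0.24 in females. Of the 6 mice at the lower level 5 were hAPOE3, and the part of library composition in the difference was not tested.

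The ratio of Adam10 to Bace1 counts within a mouse, which does not depend on library size, ran from 0.584 in S158 to 0.859 in S156, both hAPOE3 males. On the log2 scale its mean in males was -0.48 ± 0.23 (SD, n = 5) with hAPOE3 and -0.50 ± 0.14 with hAPOE4. In females it was -0.36 ± 0.11 with hAPOE3 and -0.40 ± 0.10 with hAPOE4. None of the 4 comparisons passed a two-sided exact permutation test, with the smallest p at 0.262 and adjusted p of at least 0.804 over 8 tests.

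Among the gamma-secretase subunits, nicastrin came closest to a difference by APOE. Ncstn was 55.3, 55.4, 53.5, 57.0 and 55.2 CPM in hAPOE3 females and 61.9, 62.8, 71.7, 56.1 and 61.2 CPM in hAPOE4 females. It was 54.3, 56.6, 58.4, 57.9 and 57.6 CPM in hAPOE3 males and 60.1, 59.8, 58.5, 56.2 and 68.3 CPM in hAPOE4 males. In both sexes 4 of 5 hAPOE4 mice lay above all 5 hAPOE3 mice. The log2 fold change was 0.18 ± 0.07 (SE) in females (unadjusted p = 0.0149, adjusted p = 0.318, edgeR). Averaged over the sexes it was 0.14 ± 0.05, with an unadjusted p of 0.0111 and an adjusted p of 0.143, so it was not called. With DESeq2's Wald test the averaged difference was called (0.14, adjusted p = 0.0491), as it was in edgeR with the length coefficient as a covariate (0.16, adjusted p = 0.0470). The adjusted p of the averaged difference ran from 0.0470 to 0.312 over all alternatives.

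Aph1a, the scaffold subunit, had lower fitted levels in females than in males, and the difference did not pass the threshold. Females had 43.5, 40.4, 39.1, 49.6 and 47.0 CPM with hAPOE3 and 45.8, 46.0, 41.7, 40.7 and 47.9 CPM with hAPOE4. Males had 49.5, 46.4, 44.2, 52.6 and 58.2 CPM with hAPOE3 and 48.6, 46.0, 59.6, 43.4 and 59.0 CPM with hAPOE4. The 3 highest values, 58.2 to 59.6 CPM, were those of S158, S176 and S178, the mice with high scores of thalamus markers. The log2 fold change of females against males was -0.19 ± 0.10 (SE) in hAPOE3 and -0.21 ± 0.10 in hAPOE4 mice. Averaged over the genotypes it was -0.20 ± 0.07, with an unadjusted p of 0.0109 and an adjusted p of 0.346 (edgeR). Without those 3 mice, all of them males, the averaged value was -0.08 (adjusted p = 0.810). With a score of choroid plexus markers as a covariate it was -0.27 (adjusted p = 0.0745, edgeR).

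Psen2, a catalytic presenilin, was 11.8, 12.8, 15.3, 14.2 and 18.1 CPM in hAPOE3 males and 12.4, 11.8, 13.8, 11.4 and 15.5 CPM in hAPOE4 males. It was 12.5, 11.3, 12.2, 15.0 and 13.8 CPM in hAPOE3 females and 13.7, 14.8, 13.7, 12.1 and 13.8 CPM in hAPOE4 females. All groups overlapped. The difference by APOE was -0.16 ± 0.12 (SE) in males, and the interaction was 0.23 ± 0.17 (adjusted p = 1.00, edgeR). Without the 5 mice with high oxidative phosphorylation scores the value in males went to 0.07 and the interaction to 0.12. The interaction was 0.13 with that score as a covariate and 0.15 with the authors' factors as offsets. Psenen, which encodes PEN2, had group means of 31.2 to 38.4 CPM, the top one in hAPOE3 males. Within that group S156, S157 and S158 had 45.2 to 47.7 CPM and the other mice 25.8 CPM each, and the 5 mice with high oxidative phosphorylation scores were the highest of all 20.

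Neither degrading protease passed a test between groups. Ide was 53.6, 54.1, 52.4, 47.9 and 41.6 CPM in hAPOE3 males and 54.5, 50.2, 53.9, 54.9 and 40.6 CPM in hAPOE4 males. It was 57.3, 59.9, 54.2, 43.4 and 46.0 CPM in hAPOE3 females and 53.3, 54.0, 55.4, 57.7 and 50.1 CPM in hAPOE4 females. The lowest 2 mice, S178 and S158, had low length coefficients and high scores of thalamus markers. S176, also with a high thalamus score (1.84) but not a low length coefficient, had 53.9 CPM.

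Mme was 8.30, 7.98, 6.85, 4.65 and 11.2 CPM in hAPOE3 males and 6.60, 6.09, 13.6, 7.67 and 4.95 CPM in hAPOE4 males. It was 8.90, 9.10, 9.68, 5.00 and 6.70 CPM in hAPOE3 females and 8.02, 6.57, 6.14, 8.11 and 5.69 CPM in hAPOE4 females. S176 and S158, with 13.6 and 11.2 CPM, were the highest and had thalamus scores of 1.84 and 1.93, yet S178, with a score of 1.79, was among the lowest at 4.95 CPM. The log2 fold change between the female genotypes was -0.19 ± 0.25 (SE), with an interval of -0.71 to 0.34, the least precise of the 9. It was -0.42 without the 5 mice with high oxidative phosphorylation scores and 0.02 with the authors' factors as offsets. The log2 ratio of Ide to Mme counts in males was 2.73 ± 0.54 (SD, n = 5) with hAPOE3 and 2.79 ± 0.46 with hAPOE4. In females it was 2.76 ± 0.23 with hAPOE3 and 2.98 ± 0.19 with hAPOE4. No comparison of it passed the exact permutation test, the smallest p being 0.119 between the female genotypes (adjusted p = 0.804).

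**Figure D2:**
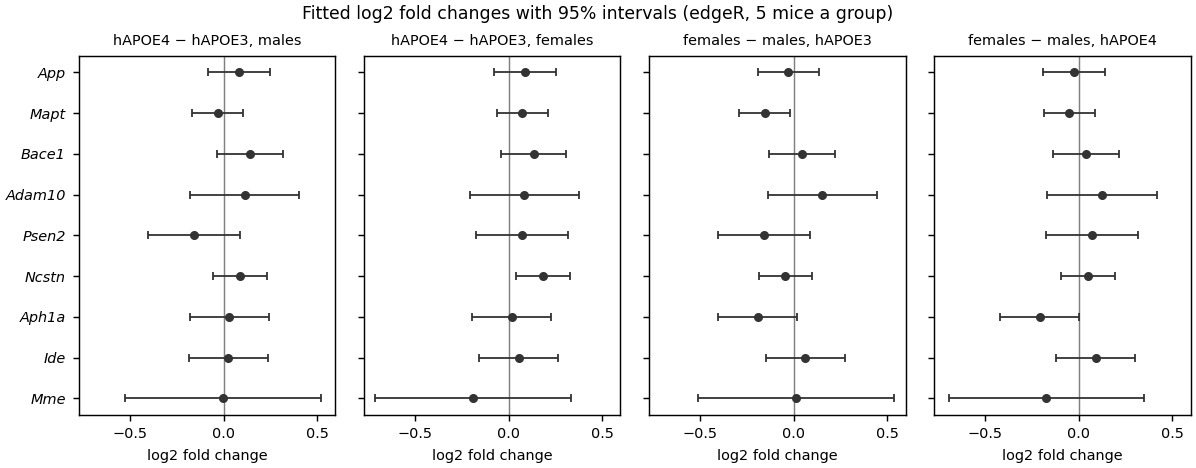
Fitted log2 fold changes of the 9 genes (points) with their 95% intervals (bars) in the 4 comparisons of 5 with 5 mice. The points lie between -0.21 and 0.18, and the Mme intervals are the widest.

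None of the 9 members passed an adjusted p of 0.05 in any of the 7 comparisons (edgeR quasi-likelihood test, Benjamini-Hochberg over 21724 genes). The share of all tested genes that passed was 0.621% for APOE in males, 0.667% for APOE in females, 0.0414% for sex in hAPOE3 mice, 0.437% for sex in hAPOE4 mice and 0.184% for the interaction. It was 2.45% for APOE averaged over the sexes and 0.129% for sex averaged over the genotypes. With such shares, 0 of 9 members is near the background. DESeq2's Wald test called 1 member, Ncstn, for averaged APOE and 0 in the other comparisons. The shares above are those of edgeR, and the share of all genes called by DESeq2 is not given here. Unadjusted p was under 0.05 for 0, 1, 1, 0, 0, 2 and 2 members in that order, namely Ncstn (females), Mapt (hAPOE3 mice), Bace1 and Ncstn (averaged APOE) and Mapt and Aph1a (averaged sex). The shares of all tested genes with such a p were 9.06%, 10.1%, 5.22%, 5.80%, 2.54%, 17.9% and 10.04%. In the comparisons of 5 with 5 mice, the count of members without overlap was 0 for APOE in males, against 1.44% of all genes, and 0 for APOE in females, against 3.27%. It was 1 for sex in hAPOE3 mice, Mapt, and 0 for sex in hAPOE4 mice, against 0.723% of all genes in each.

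Fitted log2 fold changes of members not given singly above lay between -0.18 and 0.15 over the 7 comparisons. The median over the 9 members was 0.03 for APOE in males and 0.07 in females, against 0.0017 and 0.0013 over all genes. For sex it was -0.03 in hAPOE3 and 0.04 in hAPOE4 mice, against 0.0030 and -0.0086. In the 4 comparisons of 5 with 5 mice the 95% intervals reached as far as -0.71 for Mme. For any other member they reached no farther than 0.45 (Adam10). For each gene, differences inside its own interval are not excluded by these data.

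Beyond the 9 members, 6 lists of related genes were examined: other secretase genes, relatives and adaptors of APP, other degrading and clearing factors, tau kinases, tau phosphatases and chaperones, and microtubule proteins. Of 112 genes 110 were tested, and 1 passed the threshold in any comparison, in the list of degradation and clearance (19 tested). It passed for averaged APOE, where 2.45% of all tested genes did, so a count of 1 in 110 is not above the background. Plat, tissue plasminogen activator, which turns plasminogen into plasmin, a protease able to degrade amyloid-beta, was higher in hAPOE4 mice.

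Plat was 32.2, 30.4, 32.9, 28.2 and 39.6 CPM in hAPOE3 males and 39.0, 40.1, 42.6, 39.1 and 46.2 CPM in hAPOE4 males. It was 39.3, 33.2, 35.2, 34.8 and 31.7 CPM in hAPOE3 females and 44.8, 45.4, 53.5, 41.0 and 39.4 CPM in hAPOE4 females. The female genotypes did not overlap, and in males only S158 of the hAPOE3 mice reached the hAPOE4 range. Averaged over the sexes, the log2 fold change was 0.35 ± 0.07 (SE), with an adjusted p of 0.00767 (edgeR). Within a sex it was 0.34 ± 0.10 in males (adjusted p = 0.178) and 0.36 ± 0.10 in females (adjusted p = 0.103), neither past the threshold. Without S158 the difference in males was 0.42 and passed (adjusted p = 0.0286). Without the 5 mice with high oxidative phosphorylation scores the averaged value was 0.36 (adjusted p = 0.0472).

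**Figure D3:**
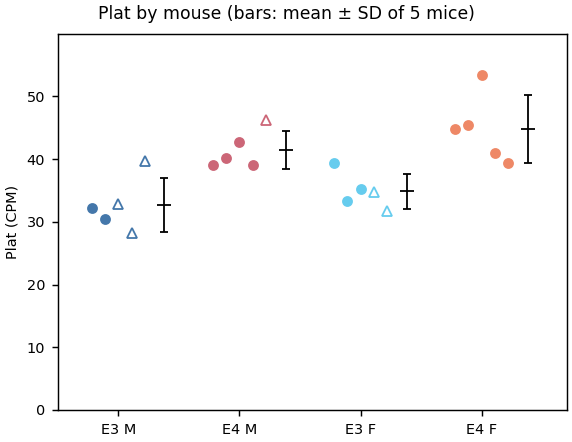
CPM of Plat in each mouse, with the mean and SD of 5 mice as bars and the 6 mice with a low length coefficient as open triangles. In females the hAPOE4 mice, at 39.4 to 53.5 CPM, all lie above the hAPOE3 mice, at 31.7 to 39.3 CPM.

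The other 5 lists had 0 genes past the threshold in each of the 7 comparisons, so their genes with the smallest unadjusted p are given as values. Among the secretase genes these were Aph1c, an APH1 relative, at 0.45 ± 0.15 (SE, log2) between the hAPOE4 sexes (adjusted p = 0.446, edgeR), and Adam19 at 0.23 ± 0.08 for averaged APOE (adjusted p = 0.145). Aph1c was highest in S166, S165 and S164, at 21.1, 18.8 and 18.1 CPM, the mice with the highest choroid plexus scores (2.80, 2.69 and 2.16). With that score as a covariate it was 0.29 (adjusted p = 0.582, edgeR). Among APP relatives and adaptors they were Gga1, an adaptor in BACE1 sorting, at 0.40 ± 0.12, and Lrp1, an APOE and APP receptor, at 0.37 ± 0.14, both for averaged APOE (adjusted p = 0.0911 and 0.165). With the authors' factors as offsets Lrp1 was -0.12, and with the length coefficient as a covariate it was 0.26 and passed (adjusted p = 0.0367, edgeR). Among tau kinases, Csnk1e was -0.16 ± 0.06 for averaged sex (adjusted p = 0.342) and Csnk1d 0.14 ± 0.05 for averaged APOE (adjusted p = 0.170). Among tau phosphatases and chaperones, Ptpa, an activator of protein phosphatase 2A, was -0.23 ± 0.07 and Ppp5c -0.15 ± 0.06 for averaged sex (adjusted p = 0.297 and 0.398). Among microtubule proteins, Tubb4a was -0.28 ± 0.11 for averaged sex (adjusted p = 0.394) and Map1a 0.42 ± 0.17 for averaged APOE (adjusted p = 0.197).

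When the 5 mice with high oxidative phosphorylation scores were left out, averaged APOE was 0.17 for Gga1 (adjusted p = 0.371, edgeR), 0.06 for Lrp1 (0.802), 0.05 for Map1a (0.868), 0.04 for Adam19 (0.757) and 0.04 for Csnk1d (0.669). For averaged sex, Csnk1e was -0.10 and Ppp5c -0.09 without them. Without the 3 mice with high thalamus scores, averaged sex was -0.11 for Tubb4a, -0.13 for Ptpa and -0.08 for Ppp5c. The list medians for averaged APOE ran from -0.02 in microtubule proteins to 0.09 in other secretase genes, against 0.0016 over all genes.

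**Figure D4:**
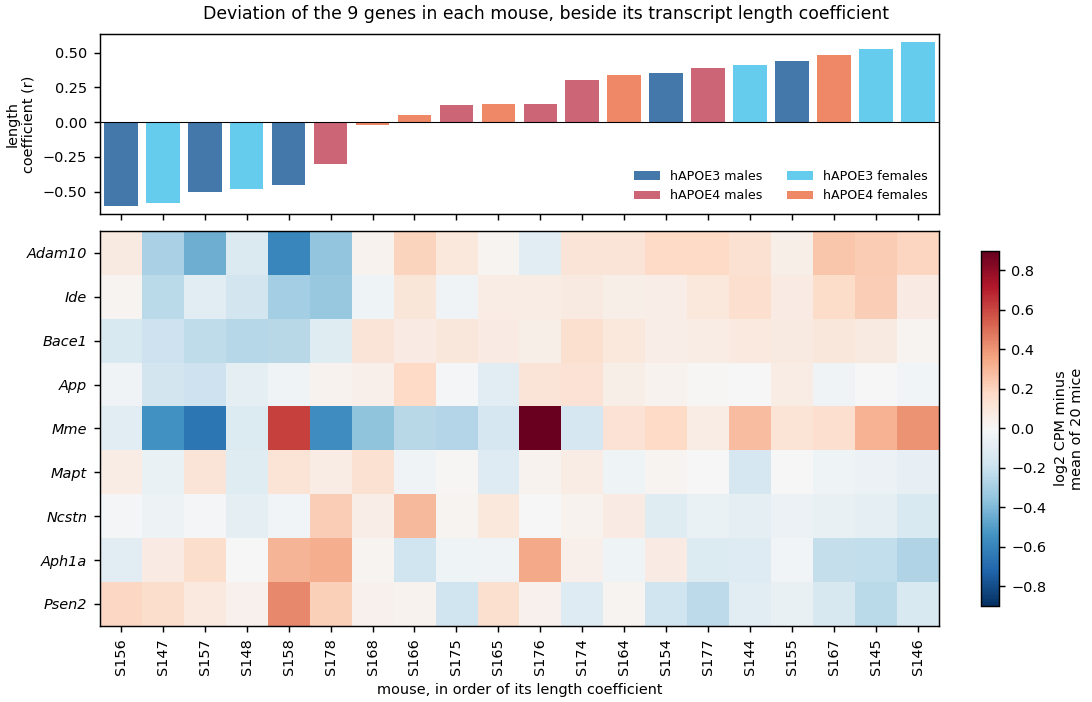
The upper panel gives the length coefficient of each mouse (Pearson r across 10741 genes) in rising order, coloured by group. The lower panel gives each gene's log2 CPM minus its mean over 20 mice: Adam10, Ide and Bace1 are mostly blue (low) in the 6 mice on the left and Psen2 red (high).

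With the groups pooled, several members differed in level between the mice with a low length coefficient and the others. The 6 mice with a low length coefficient had 60.2 to 95.7 CPM of Adam10, against 84.9 to 108 CPM in the other 14, and 40.6 to 52.4 against 50.1 to 59.9 CPM of Ide. Psen2 ran the other way, at 13.8 to 18.1 against 11.3 to 14.8 CPM. Mapt (479 to 561 against 465 to 569 CPM) and Ncstn (55.2 to 68.3 against 53.5 to 71.7 CPM) covered about the same range in both. Principal transcripts are 6058 bases long for Bace1, 4962 for Ide and 4593 for Adam10, against 2020 for Psen2, 2863 for Aph1a and 1362 for Mapt. Those of App and Ncstn have 3176 and 2901 bases. The Mapt length leaves out most of the untranslated ends, and its longest coding transcript has 5253 bases. The longest principal transcript is that of Mme, at 8039 bases, with a GC content of 38.0%. Since the mice fell into separate ranges of the coefficient, correlations were computed within the 14 mice of the upper range, and all share library and scaling. The groups were pooled without centring on group means, so differences between groups enter these correlations. Among the 14, the hAPOE3 mice had coefficients of 0.35 to 0.57 and Ncstn of 53.5 to 56.6 CPM. The hAPOE4 mice among them had coefficients of -0.02 to 0.48 and Ncstn of 56.1 to 71.7 CPM. Over these 14 mice, 3 members passed an adjusted p of 0.05 with the coefficient (Pearson, permutation test with 100000 resamples, 9 members). The coefficient was computed from the same libraries, and the share of all genes that would pass is not given here. A count of 3 in 9 is therefore not a trait shown to be particular to the members. Ncstn had r = -0.76 (p = 0.00095, adjusted p = 0.00855) and rho = -0.80 (adjusted p = 0.00765), and r = -0.75 without the 2 mice farthest from the median coefficient. Psen2 had r = -0.64 (adjusted p = 0.0450) and rho = -0.57 (adjusted p = 0.0734), and Ide r = 0.64 (adjusted p = 0.0450) and rho = 0.59 (adjusted p = 0.0734), with r = -0.54 and 0.64 without such mice. By rank, Mme passed (rho = 0.72, adjusted p = 0.0220, permutation test), with r = 0.47 (adjusted p = 0.134), and r = 0.20 without such mice. In the 6 mice of the lower range r had the opposite sign, at 0.75 for Ncstn, 0.24 for Psen2 and -0.71 for Ide. No test was run on these 6 mice. For Mme r was -0.02 there. Whether RNA or library quality had a part in this pattern was not tested.

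**Figure D5:**
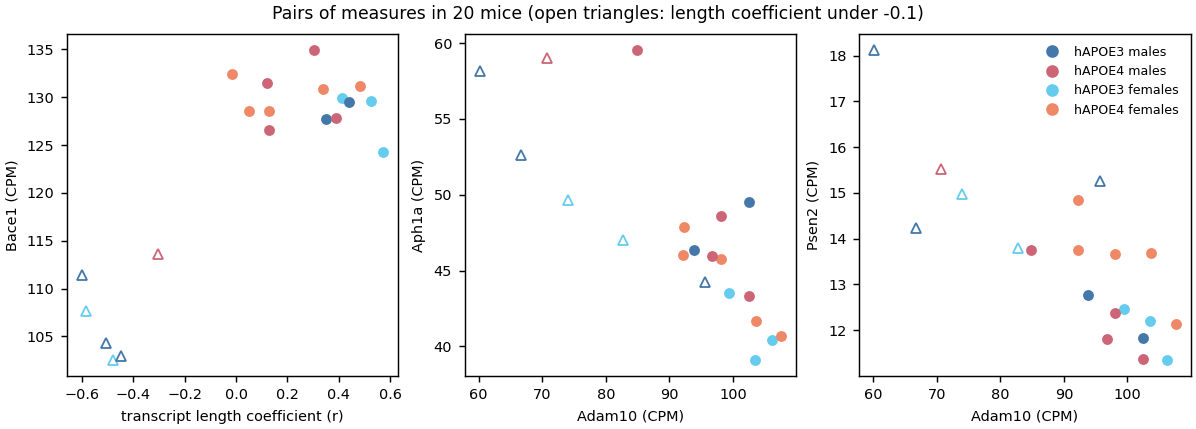
Each point is a mouse. The left panel sets Bace1 (CPM) against the length coefficient, the others Aph1a and Psen2 against Adam10 (CPM), with colours for groups and open triangles for the 6 mice with a low coefficient. Bace1 falls into separate levels, and Aph1a is lower where Adam10 is higher.

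Of the 36 pairs of members, 1 passed an adjusted p of 0.05 over the 14 mice of the upper range, the secretases Aph1a and Adam10, with r = -0.83 (p = 0.00034, adjusted p = 0.0122, permutation test) and rho = -0.73 (adjusted p = 0.0553). Without the 2 mice farthest from the median of Aph1a (S146 and S176) r was -0.68, and in the 6 mice of the lower range it was -0.88. Adam10 and Ide had r = 0.55 (adjusted p = 0.245) over the 14 mice and 0.72 over the 6. Bace1 and Adam10, both low in the 6 mice, had r = -0.02 (adjusted p = 0.997) among the other 14. The values of these pairs too were not centred on group means. How often pairs of other genes reach such correlations in these libraries is not given here, so the pair is a description.

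The genes most like each member over the 20 mice, by Pearson r of log2 CPM centred on group means among 11134 other genes, are given as a description. They were Gnl3l (0.87) and Slc39a14 (0.83) for App, Sgsm3 (0.81) and Sart1 (0.80) for Mapt, and Adcy9 (0.97) and Elfn2 (0.96) for Bace1. For Adam10 they were Sp3 (0.99) and Crk (0.98), for Psen2 Mettl26 (0.96) and Ddrgk1 (0.95), for Ncstn Fads3 (0.83) and Plpp5 (0.79), and for Aph1a Necap2 (0.95) and AI854703 (0.94). For Ide they were Supt16 (0.95) and Arid2 (0.95), and for Mme Tmem229a (0.95) and Kif5b (0.94). The mice with a low length coefficient enter these values.

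In the deposited normalized counts the divisor is specific to a gene in a mouse and follows the mean length of the transcripts to which reads were assigned. Set relative to the median gene of each mouse, this divisor, the length factor, ranged most for Mme, from 0.727 in S167 to 1.35 in S147, a 1.86-fold range that 7.53% of 21150 genes exceeded. It ranged least for Adam10, 1.08-fold. For Mme the factor was 1.07 to 1.30 in hAPOE3 males and 0.786 to 1.30 in hAPOE4 males. None of 36 exact permutation tests of the members' factors between groups passed after adjustment, the smallest being Bace1 between the female genotypes (p = 0.0238, adjusted p = 0.457).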

How the data were processed

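The hippocampi of 20 mice were dissected after perfusion, and RNA was extracted, purified and sequenced as polyA libraries with paired-end reads. Per the labels, transcripts were quantified with Salmon 0.91, and the authors brought these estimates to the gene level with tximport. Of the tables deposited, the first holds those counts, whole numbers without normalization, for 33119 genes. The second holds the authors' normalized counts from DESeq2, a signal in which the divisor is specific to a gene in a mouse. It was used only for those divisors and for alternatives. Columns were matched to mice by name, and 0 were left out. The labels give genotype, sex and age but no replicate numbers or batches, so mice were numbered in accession order and not paired.

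The main test was the quasi-likelihood F test of edgeR 4.0.16 under R 4.3.3 (TMM scaling, filterByExpr by group, 21724 genes, glmQLFit and glmQLFTest with a mean for each of 4 groups, Benjamini-Hochberg over all genes tested, threshold 0.05). Standard errors are the size of the fold change over the root of F, and 95% intervals from the t distribution at the fitted degrees of freedom. CPM are TMM-normalized, and log2 CPM used a prior count of 2. At 35778879 to 52520279 counts a mouse, Mme had 203 to 674 counts and Psen2 427 to 982. Every other member had at least 1369 in each mouse. Counting error is therefore larger for Mme and Psen2 than for the other members. Groups of 5 were also compared by two-sided exact permutation tests, and correlations by 100000 resamples over mice irrespective of group. The length coefficient used genes with a mean log2 CPM of at least 3, and -0.1 separated its ranges, a value chosen after the data were seen.

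The 9 members, the lists of related and marker genes, the tests and the rule for named genes were chosen with earlier results of these data known. That rule took all members, list genes past the threshold or, where there were none, the 2 with the smallest unadjusted p, and the 2 genes most like each member. Psenen was named in addition, as a subunit of the complex. Fold changes are printed singly for App between groups, for the largest change in a comparison and for an unadjusted p under 0.15, a rule set after values were seen. Gene positions, lengths and stretches are those of GENCODE release M21 (GRCm38), and the annotated coding start of Ide is incomplete. Apbb3 was not analysed here, and 2 genes of the lists are not reported here and are left out of their counts. The tests were checked on simulated counts. Alternatives covered DESeq2 1.42.0, size factors, filters, mitochondrial genes, a fit of only the groups compared, the authors' factors as offsets, covariates, exact permutation and each mouse left out. Leaving out 5 or 3 mice and the length coefficient as a covariate were added after the data were seen.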

Additional observations from a re-analysis of the deposited data

Results flagged for a closer look

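Values of members were looked at for a mouse far from the other 4 of its group (Dixon's test at 95%), in 80 groups of 5, and 6 stood out. Chance flags about 1 in 20 groups. None of the 36 groups of CPM values was among them. The log2 ratio of Ide to Mme counts was 1.99 in S176, against 2.84 in the nearest hAPOE4 male. This mouse had the highest Mme (13.6 CPM) and a thalamus score of 1.84, and the part of dissection in it was not tested.

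The other 5 were relative length factors of the normalized counts. For Mme the factor was 1.30 in S178, against 0.865 in the nearest hAPOE4 male, and 0.727 in S167, against 0.908 in the nearest hAPOE4 female. For Aph1a it was 1.15 in S157 (hAPOE3 male, nearest 1.01) and 0.932 in S165 (hAPOE4 female, nearest 0.991). For Mapt it was 1.04 in S166 (hAPOE4 female, nearest 0.987).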

How the results depend on the processing

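Of 1962 alternative values of the members' log2 fold changes, 2 passed the threshold and 140 changed sign, none of these past the threshold. Both calls were Ncstn for averaged APOE, 0.14 with DESeq2 and 0.16 with the length coefficient as a covariate. So 1 member was called under each, and the shares of all genes called under them are not given here. With the length coefficient as a covariate, Lrp1 for averaged APOE was 0.26 and called (adjusted p = 0.0367, edgeR). Without the 5 mice with an oxidative phosphorylation score above 0.25, values in males changed sign for App (-0.0027), Bace1 (-0.0283) and Psen2 (0.0655), as did Bace1 averaged over the sexes (-0.00039). Without the 3 mice with a thalamus score above 1, App between the hAPOE4 sexes was 0.0072 and Plat between the female genotypes 0.37 and called (adjusted p = 0.0484). Plat was 0.37 there with DESeq2 and called (adjusted p = 0.0231). With the authors' factors as offsets Mme between the female genotypes was 0.0222 and Lrp1 for averaged APOE -0.12. The cause of these changes was not tested. With deposited normalized counts the log2 ratio of Ide to Mme differed by -0.24 between the male genotypes and -0.0880 between the hAPOE3 sexes.

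Leaving out each mouse in turn, App between the hAPOE4 sexes ran from -0.0616 to 0.0077 and Plat between the male genotypes from 0.29 to 0.42. The Adam10 to Bace1 ratio between the male genotypes ran from -0.0847 to 0.0541. The Ide to Mme ratio ran from -0.15 to 0.26 between the male genotypes, from -0.18 to 0.19 between the hAPOE3 sexes and from -0.00873 to 0.25 between the hAPOE4 sexes. The averaged difference of Plat passed the threshold under every alternative run. No paired analysis was possible because the labels give no replicate numbers. Groups of 5 mice limit precision, and for Mme and Psen2, with the fewest counts, counting error adds to the spread.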
